A study of Saccharomyces cerevisiae with 4 samples.

Results

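The DNA to the right and to the left of 189 isolated replication origins was examined, out of 392 origins that the authors listed for budding yeast. An origin was counted as isolated where it lies on chromosomes I to IX or XII to XVI, its interval spans at most 1000 bp, and no other listed midpoint lies within 10 kb. This choice used positions only, but an origin entered the authors' list through a BrdU peak called in either strain, from these same libraries. Of the 189 origins, 83 belong to the authors' class of Rif1-repressed origins, 43 are Rif1-activated and 63 Rif1-unregulated, and 186 carry an ARS name. Their intervals have a median length of 248 bp, and the nearest other listed midpoint lies a median of 25.3 kb away.

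BrdU-IP-Seq was carried out on *rif1Δ* and *WT* cells, with 2 libraries for each strain. The *rif1Δ* strain carries a KanMx cassette in place of *RIF1*, and *WT* is its parent. Both are W303-derived *MAT***a** *bar1Δ* cells that also carry *LEU2::BrdU-Inc*, an insertion that lets yeast use BrdU from the medium, so neither strain is free of it. After 4 h at 23 °C with α-factor at 7.5 nM, the cultures were let into S phase with 200 µg/mL pronase, and stayed for 45 min with 400 µg/mL BrdU and HU at 0.2 M per the study's methods, a dose whose unit the sample labels leave out. The deposited profile holds 1 value per strain for each bin of 50 bp, the authors' mean of 2 replicates. The differences given for these data therefore have no replicate check and no test, and the number of reads behind a bin is unknown.

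Replication starts at origins that load the MCM helicase in G1 and are activated in S phase by the kinases CDK and DDK, after which a pair of forks leaves in opposite directions. HU depletes deoxyribonucleotides, so that forks from early origins travel only a short way, and BrdU, a thymidine analog, marks the DNA they have made. Rif1 is known to bring the phosphatase Glc7 to chromatin, where it opposes DDK, and to delay late origins. The BrdU signal to the right of an isolated origin is thus taken to come from its rightward forks and the signal to the left from its leftward forks, averaged over the cells of a culture.

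A tract was defined as the 80 bins whose centers lie 1 to 5 kb from the midpoint of the interval, to the right (higher coordinates) or to the left, and its level as their mean signal. Both tracts could be measured at 188 origins, since ARS300 on chromosome III lies too close to the left end. The right tracts had a median signal of 9.14 in *rif1Δ* and 8.50 in *WT* cells, and the left tracts 9.42 in *rif1Δ* and 7.72 in *WT* cells. Windows of 1 kb lying at least 10 kb from any listed midpoint had a median of 3.175 in *rif1Δ* and 3.11 in *WT* cells. Many tracts were thus not far above background. At the origins themselves, within 500 bp of the midpoint, the median was 83.8 in *rif1Δ* and 32.5 in *WT* cells over the 189.

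Tract levels followed the authors' classes, which were called on these libraries. Over the 83 Rif1-repressed origins the mean of both tracts had a median of 7.06 in *rif1Δ* and 4.10 in *WT* cells, and it was higher in *rif1Δ* cells at 80 of them. Over the 43 Rif1-activated origins the median was 11.2 in *rif1Δ* and 25.4 in *WT* cells, and none was higher in *rif1Δ* cells. Over the 62 Rif1-unregulated origins with both tracts it was 21.7 in *rif1Δ* and 26.3 in *WT* cells, with 11 higher in *rif1Δ* cells. The strains were compared as the log2 ratio of *rif1Δ* to *WT* signal after adding 1 to each, which understates the difference of low tracts. The tracts of 24 origins were at least 2-fold higher in *rif1Δ* cells, all of them Rif1-repressed, against 17.1% of the 385 listed origins that could be measured. Those of 25 were at least 2-fold lower, all Rif1-activated, against 13.2%. The 24 and 25 of 188 origins (12.8% and 13.3%) lie below and near these background shares.

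**Figure D1:**
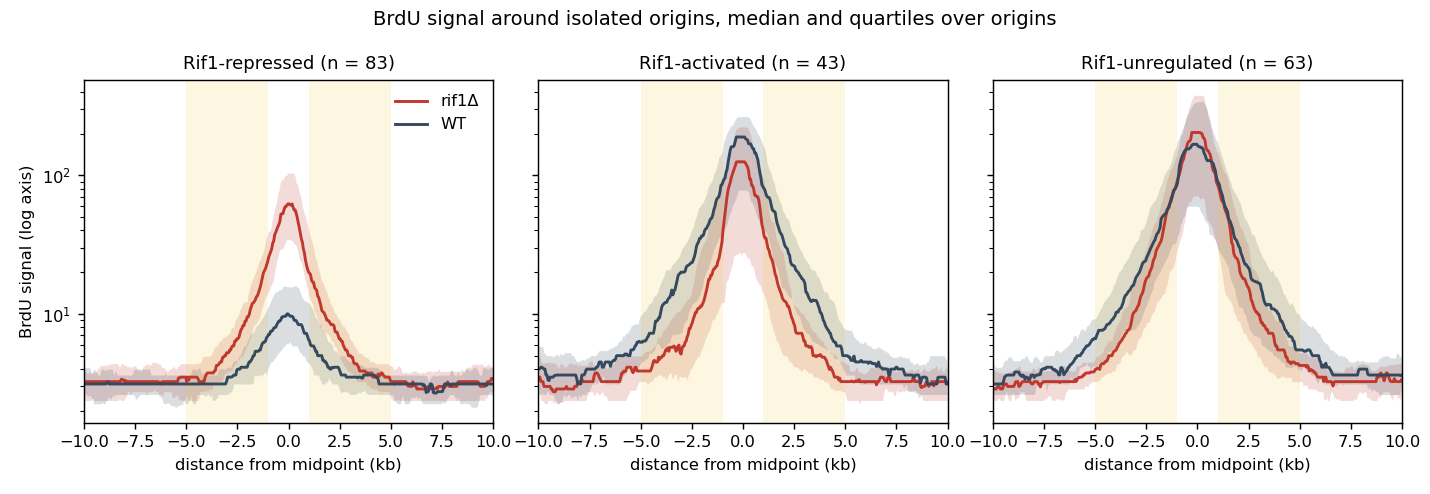
Median BrdU signal (log axis) against the distance from the origin midpoint in kb for the 83 Rif1-repressed, 43 Rif1-activated and 63 Rif1-unregulated isolated origins, in *rif1Δ* (red) and *WT* (dark) cells; bands are quartiles over origins and the yellow areas mark the tracts at 1 to 5 kb. The *rif1Δ* line lies above *WT* over the tracts of Rif1-repressed origins and below it over those of both other classes.

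A comparison of the sides needs tracts above background, so it was made where the mean of both tracts was at least 10. That held for 92 of 188 origins in *rif1Δ* and 88 in *WT* cells. It held in both strains at 72 origins, in *rif1Δ* cells only at 20, in *WT* cells only at 16, and in neither at 80. All 20 of the origins at this level in *rif1Δ* cells only are Rif1-repressed. Of the 16 in *WT* cells only, 11 are Rif1-activated and 5 Rif1-unregulated. The 72 origins measured in both strains comprise 3 Rif1-repressed, 25 Rif1-activated and 44 Rif1-unregulated origins, so comparisons of asymmetry between the strains say little about Rif1-repressed origins. The minimum of 10 is still within the range of background, where 99% of the windows had at most 13.7 in *rif1Δ* and 13.6 in *WT* cells. It limits the mean of both tracts, so a single tract can be lower. At a minimum of 20, 46 origins remained in *rif1Δ* and 63 in *WT* cells, with 42 in both.

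At these 72 origins the tracts were lower in *rif1Δ* cells by more than the origin itself was. The median log2 ratio was -0.06 at the center, -0.47 in the right and -0.46 in the left tract at 1 to 2 kb, and -0.85 on the right and -0.77 on the left at 2 to 3 kb. At 3 to 4 kb it was -0.91 on the right and -1.08 on the left, and at 4 to 5 kb -0.95 on the right and -0.97 on the left. The deficit in *rif1Δ* cells was thus larger beyond 2 kb than at 1 to 2 kb, and of like size on both sides. The tract level was a median of 9.96% of the center signal in *rif1Δ* and 15.6% in *WT* cells, and it was the smaller share in *rif1Δ* cells at 72 of 72 origins. Such a share, taken within a strain, is free of any scale factor between the strains. At 4 to 5 kb the medians in *rif1Δ* cells, 5.003 on the right and 5.09 on the left, were close to background, against 9.27 on the right and 10.9 on the left in *WT* cells.

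Rif1-activated and Rif1-unregulated origins both showed this. At the 25 Rif1-activated origins the center had a median log2 ratio of -0.42, and the tracts at 2 to 3 kb -1.33 on the right and -1.36 on the left. At the 44 Rif1-unregulated origins, whose center was at 0.10, the same tracts were at -0.66 on the right and -0.70 on the left. At the 3 Rif1-repressed origins the share of the center signal was likewise lower in *rif1Δ* cells, but the tracts themselves were higher (positions are those of the R64 genome). ARS107 (chromosome I, 124350 to 124599, between *PSK1* and *TPD3*) had 18.7 on the right and 19.6 on the left in *rif1Δ* cells, against 13.4 on the right and 13.6 on the left in *WT* cells. ARS707 (chromosome VII, 163180 to 163447, overlapping *TOS3*) had 34.4 on the right and 43.0 on the left in *rif1Δ* cells, against 16.5 on the right and 18.6 on the left in *WT* cells. ARS1618 (chromosome XVI, 384536 to 384784, overlapping *ELP3*, which encodes the catalytic subunit of Elongator) had 30.7 on the right and 25.0 on the left in *rif1Δ* cells, against 16.1 on the right and 13.7 on the left in *WT* cells. Both tracts of each were higher in *rif1Δ* cells, and the side that was higher was the same in both strains.

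**Figure D2:**
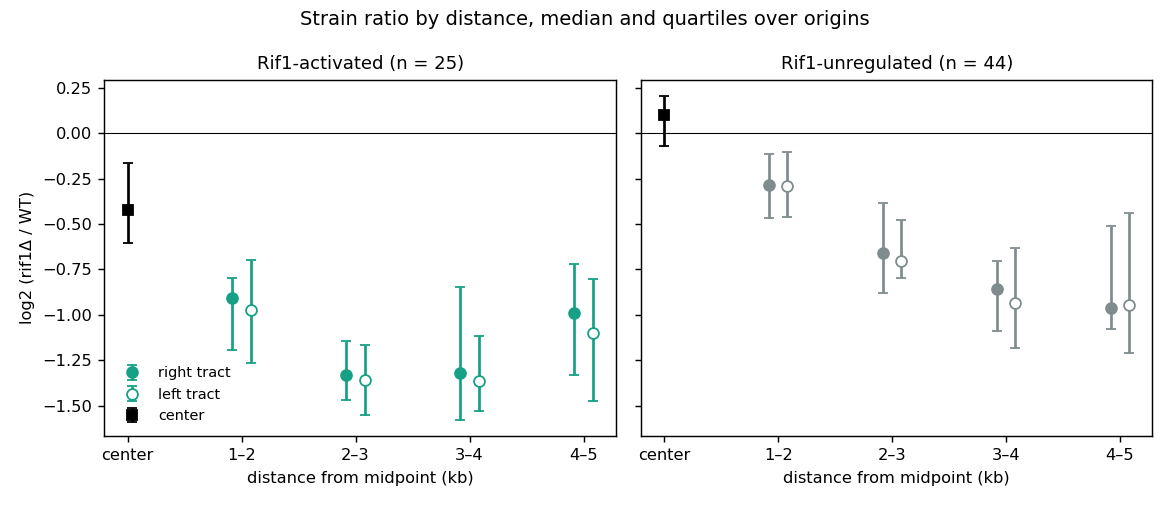
log2 of *rif1Δ* over *WT* signal, each with 1 added, at the center (within 500 bp of the midpoint) and in steps of 1 kb along the right (filled) and left (open) tracts of the 25 Rif1-activated and 44 Rif1-unregulated origins with tracts of at least 10 in both strains; points are medians and bars quartiles over origins. The ratio is lower in the tracts than at the center in both classes, and right and left points lie close to each other.

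Lengths read from the profile gave the same picture. Starting at the midpoint of these 72 origins, the signal first went under 50% of the center signal after a median of 908 bp on the right and 944 bp on the left in *rif1Δ* cells, against 1111 bp on the right and 1129.5 bp on the left in *WT* cells. It first went under a signal of 10 after 3145 bp on the right and 3434 bp on the left in *rif1Δ* cells, against 4253 bp on the right and 4729 bp on the left in *WT* cells. The distances to a signal of 10, unlike those to 50% of the center, depend on the unstated scaling of the strains.

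Asymmetry was taken as log2((right + 1)/(left + 1)), positive where the right tract was higher, and an origin was said to lean to the side of its higher tract. Most origins were close to even. Among the 92 origins measured in *rif1Δ* cells the asymmetry had a median of -0.07, with 35 leaning right and 57 left, and among the 88 in *WT* cells a median of -0.08, with 34 leaning right and 54 left. The higher tract exceeded the lower by a median of 1.202 times in *rif1Δ* and 1.13 times in *WT* cells, with 1 added to each signal. It was under 1.5 times at 75 of 92 origins in *rif1Δ* and 75 of 88 in *WT* cells.

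Leans of 2-fold or more were few. In *rif1Δ* cells 0 of 92 origins leaned right by that much, against 17.5% of all listed origins at the same level, and 6 leaned left (6.52%, against 15.6%). In *WT* cells 1 of 88 leaned right (1.14%, against 12.8%) and 5 leaned left (5.68%, against 13.3%). The shares over all listed origins include those with a neighbor within 10 kb, whose tract on that side can cover the neighbor's peak. The isolated origins had a median size of asymmetry of 0.27 in *rif1Δ* and 0.18 in *WT* cells, against 1.14 in *rif1Δ* (n = 119) and 0.75 in *WT* cells (n = 100) at the listed origins that are not among the 189.

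Most of the 2-fold leans rested on tracts in which part of the bins had almost no signal. Bins at a signal of 1 or less in either strain, here called low bins, occurred in a tract of 27 of the 189 origins. Of the 6 origins that leaned 2-fold in *rif1Δ* cells 5 had them, and of the 6 in *WT* cells 4. Without such origins 1 of 83 leaned 2-fold in *rif1Δ* cells, ARS310, and 2 of 79 in *WT* cells, ARS310 and ARS211. How the authors treated reads that align to more than 1 place is not given in the sources used here, and the part of alignment in these low values was not tested.

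Of the origins that leaned left in both strains, ARS1308 did so most. It lies on chromosome XIII at 183793 to 184037, overlaps YNCM0007C and is Rif1-unregulated. Its right tract had 0.25 and its left tract 48.3 in *rif1Δ* cells, against 1.70 on the right and 76.4 on the left in *WT* cells. The asymmetry was -5.30 in *rif1Δ* and -4.84 in *WT* cells, and all 80 right bins were low. To the right the signal went under 50% of the center within 310 bp in both strains, whereas to the left it did so after 1640 bp in *rif1Δ* and 1990 bp in *WT* cells. The gene YML045W, 5269 bp long, spans the whole right tract, and the gene with the longest stretch in the left tract is *PRP39*, which encodes a subunit of the U1 snRNP. The peak, the highest bin within 1 kb of the midpoint on the mean of both strains, had an offset of -365 bp (negative to the left), and with the tracts measured from that peak the asymmetry was -4.71 in *rif1Δ* and -4.10 in *WT* cells.

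A like pattern was found at 3 further origins of this kind. ARS109 (chromosome I, 159906 to 160127, between *SEN34* and YAR009C, Rif1-activated) had 0.291 on the right and 24.6 on the left in *rif1Δ* cells, against 2.90 on the right and 47.9 on the left in *WT* cells, with 77 low bins on the right, over YAR009C. The gene with the longest stretch in its left tract is *RFA1*, which encodes the largest subunit of the single-strand binding protein RPA. ARS1312 (chromosome XIII, 370976 to 371221, between *ERB1* and YNCM0021C, Rif1-activated) had 11.995 on the right and 25.2 on the left in *rif1Δ* cells, against 19.3 on the right and 42.4 on the left in *WT* cells, with 62 low bins on the right, over the 5269 bp of YMR050C. Its asymmetry was -1.01 in *rif1Δ* and -1.09 in *WT* cells. ARS605 (chromosome VI, 135979 to 136080, overlapping *MSH4*, a gene of meiotic crossing over, Rif1-unregulated) had 9.14 on the right and 20.6 on the left in *rif1Δ* cells, against 17.03 on the right and 24.9 on the left in *WT* cells, with 57 low bins on the right, over the 5314 bp of YFL002W-A. At all 4 origins the low bins were on the right, and a gene with no name beyond its systematic one covered most of that tract. At 3 to 4 kb and at 4 to 5 kb on the right, all 4 had 0.25 in *rif1Δ* cells and between 1.05 and 2.34 in *WT* cells. The windows far from listed midpoints had a median of 3.175 in *rif1Δ* and 3.11 in *WT* cells, so these stretches were below that background. Whether forks or the alignment of reads gave these low bins was not tested.

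The tract with low bins was the left one at ARS520 (chromosome V, 498417 to 499343, between YER159C-A and *SPT2*, Rif1-activated), the origin that leaned right by 2-fold in *WT* cells. It had 25.0 on the right and 1.49 on the left in *WT* cells, and in *rif1Δ* cells, where its tracts were under the minimum, 9.92 on the right and 0.25 on the left. All 80 left bins were low, and YER160C, again 5269 bp long, spans the whole left tract. ARS824 (chromosome VIII, 555996 to 556327, between *IMD2* and YHR218W, Rif1-repressed) had 0.616 on the right and 23.4 on the left in *rif1Δ* cells, against 5.48 on the right and 2.06 on the left in *WT* cells. It had 76 low bins on the right and 41 on the left, so that its lean in neither strain can be read. Low tracts at origins under the minimum included the left tract of ARS225 (chromosome II, 757390 to 757621, overlapping *PPS1*) and the right tract of ARS1216 (chromosome XII, 450485 to 450726). The left tract of ARS225 lies wholly over *RIF1*, the gene that the *rif1Δ* strain lacks, and had 0.25 in *rif1Δ* and 2.51 in *WT* cells. The right tract of ARS1216 runs into the ribosomal DNA and had 0.259 in *rif1Δ* and 15.4 in *WT* cells.

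The other 3 origins named for a lean to the left had no low bins. ARS310 (chromosome III, 166494 to 167340, between *NPP1* and *RHB1*, Rif1-activated) had 8.63 on the right and 19.0 on the left in *rif1Δ* cells, against 15.1 on the right and 36.4 on the left in *WT* cells, an asymmetry of -1.06 in *rif1Δ* and -1.22 in *WT* cells. Its interval is 846 bp long and its peak had an offset of -342 bp. Measured from the peak, the asymmetry was 0.00 in *rif1Δ* and -0.39 in *WT* cells. ARS1211 (chromosome XII, 231179 to 231422, between *NFG1* and *TRX1*, which encodes a thioredoxin, Rif1-activated) had 17.7 on the right and 35.4 on the left in *rif1Δ* cells, against 47.6 on the right and 77.2 on the left in *WT* cells. Its peak was at -25.5 bp, and its asymmetry of -0.96 in *rif1Δ* and -0.69 in *WT* cells hardly moved when measured from the peak, at -0.88 in *rif1Δ* and -0.63 in *WT* cells. ARS728 (chromosome VII, 715273 to 715556, between *CLD1* and YGR111W, Rif1-unregulated) had 20.5 on the right and 30.01 on the left in *rif1Δ* cells, against 34.2 on the right and 56.8 on the left in *WT* cells. From its peak, at -239.5 bp, the asymmetry was 0.00 in *rif1Δ* and -0.38 in *WT* cells. The left signal of ARS728 did not fall steadily with distance. It rose from 19.7 at 2 to 3 kb to 33.0 at 3 to 4 kb in *rif1Δ* cells, and from 33.9 to 74.7 in *WT* cells. At 1 to 2 kb the sides were near even, at -0.09 in *rif1Δ* and 0.01 in *WT* cells.

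The largest leans to the right that both strains had were all under 2-fold. ARS1220.5 (chromosome XII, 687249 to 687738, between *YCS4*, which encodes a condensin subunit, and YNCL0036C, Rif1-unregulated) had 17.99 on the right and 9.67 on the left in *rif1Δ* cells, against 21.3 on the right and 14.1 on the left in *WT* cells. Its asymmetry was 0.83 in *rif1Δ* and 0.56 in *WT* cells, but 0.13 in *rif1Δ* and -0.06 in *WT* cells when measured from the peak, which lay 356.5 bp to the right. ARS920 (chromosome IX, 357156 to 357393, between *SGN1* and *MPH1*, which encodes a DNA helicase, Rif1-activated) had 19.6 on the right and 14.4 on the left in *rif1Δ* cells, against 59.0 on the right and 33.1 on the left in *WT* cells. It lies near the centromere, 1.13 kb from the edge of the first gene on that arm. Its lean was the smaller in *rif1Δ* cells, at 0.42 against 0.82 in *WT* cells, and 0.54 against 0.92 from the peak. ARS731.5 (chromosome VII, 888350 to 888599, between *XKS1* and *SKI6*, which encodes an exosome subunit, Rif1-unregulated) had 63.4 on the right and 43.1 on the left in *rif1Δ* cells, against 82.8 on the right and 65.7 on the left in *WT* cells, with its peak 0.5 bp from the midpoint and an asymmetry of 0.55 in *rif1Δ* and 0.33 in *WT* cells.

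The other 3 named for a lean to the right had it in both strains. ARS1320 (chromosome XIII, 535595 to 535843, between *JLP2* and *REC114*, a gene of meiotic recombination, Rif1-unregulated) had 20.7 on the right and 14.9 on the left in *rif1Δ* cells, against 28.1 on the right and 19.8 on the left in *WT* cells. ARS731 (chromosome VII, 834492 to 834736, overlapping *PUS6*, which encodes a pseudouridine synthase, Rif1-activated) had 33.2 on the right and 24.4 on the left in *rif1Δ* cells, against 73.4 on the right and 57.0 on the left in *WT* cells. ARS606 (chromosome VI, 167606 to 168041, overlapping *DCV1*, Rif1-unregulated) had 38.6 on the right and 25.3 on the left in *rif1Δ* cells, against 58.7 on the right and 46.5 on the left in *WT* cells. The right tract was higher in both strains at all 3, also when measured from the peak.

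**Figure D3:**
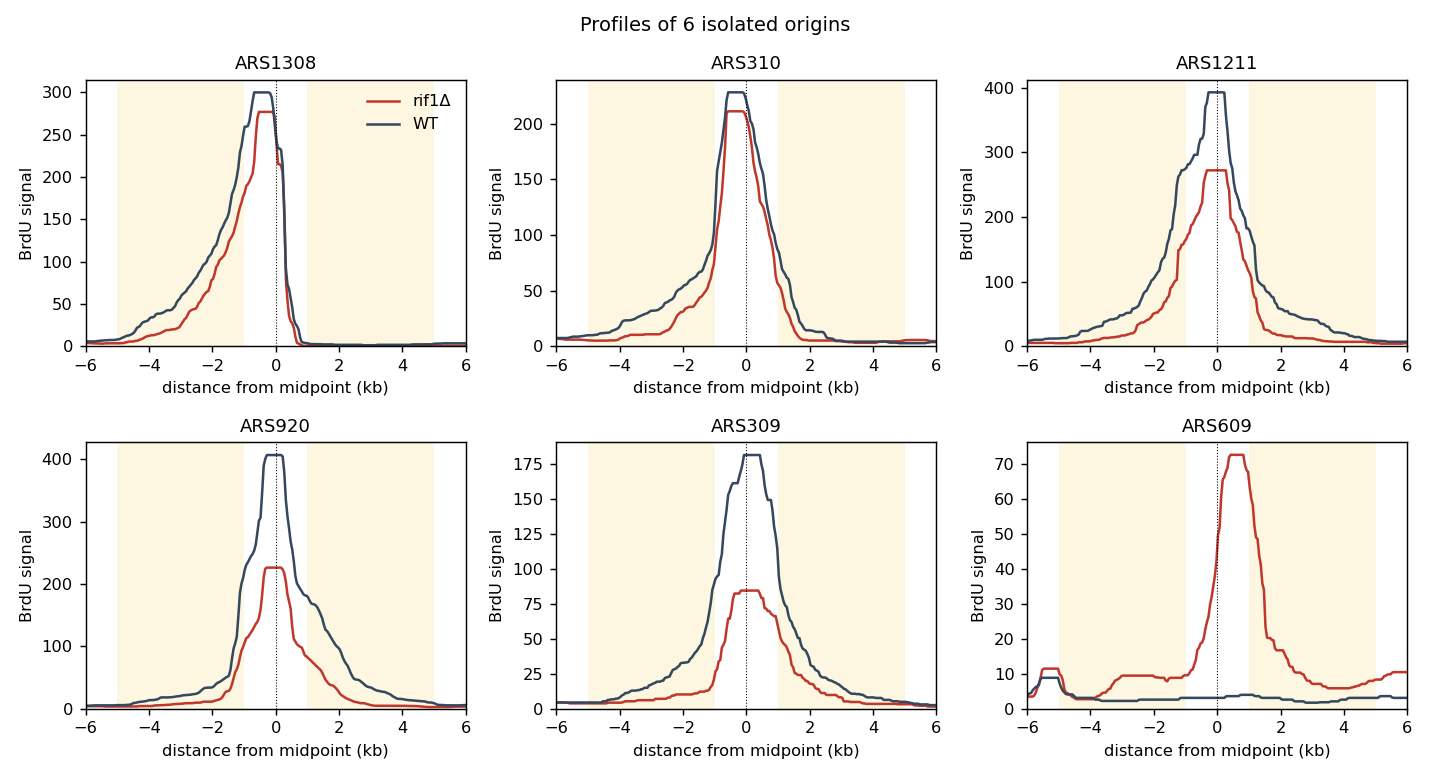
BrdU signal against the distance from the origin midpoint in kb at ARS1308, ARS310, ARS1211, ARS920, ARS309 and ARS609, in *rif1Δ* (red) and *WT* (dark) cells; the yellow areas mark the tracts and the dotted line the midpoint, and each panel has its own scale. ARS1308 has almost no signal to the right in both strains, ARS1211 is wider to the left and ARS920 to the right in both, and the peak of ARS609 in *rif1Δ* cells lies to the right of the midpoint.

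Whether the strains share the lean was asked at the 72 origins. The sides agreed at 60 of 72 (83.3%), 21 to the right and 39 to the left, while 8 leaned right in *rif1Δ* cells only and 4 in *WT* cells only. Over all 156 listed origins at this level in both strains the share was 87.8%, so that the isolated origins did not stand out by it. Where either strain had a tract 1.1 times the other or more the sides agreed at 52 of 59 origins, and at 1.5 times at 18 of 18, counts that are nested in each other. Of the 5 origins with a 2-fold lean in either strain 4 had it in both, to the same side, namely ARS1308, ARS109, ARS1312 and ARS310. Among these only ARS310 had no low bins, and from its peak its asymmetry was 0.00 in *rif1Δ* and -0.39 in *WT* cells. The counts at 1.1 and 1.5 times also include origins with low bins.

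The size of the lean was also close. Across the 72 origins Pearson's r between the asymmetry in *rif1Δ* and in *WT* cells was 0.97 and Spearman's rho 0.87. These are descriptions across origins, which share the gene layout, the reference sequence and the authors' processing in both strains. Without ARS1308 and ARS109, the 2 farthest from the median in *WT* cells, r was 0.85 and rho 0.86, and over the 65 origins with no low bins r was 0.85 and rho 0.83, with 53 of 65 on the same side. Measured from the peaks rho was 0.87 and 60 of 72 agreed, although the peaks were placed on the mean of both strains. By step of 1 kb, rho was 0.84 at 1 to 2 kb, 0.83 at 2 to 3 kb, 0.74 at 3 to 4 kb and 0.67 at 4 to 5 kb, where the signal was lowest.

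**Figure D4:**
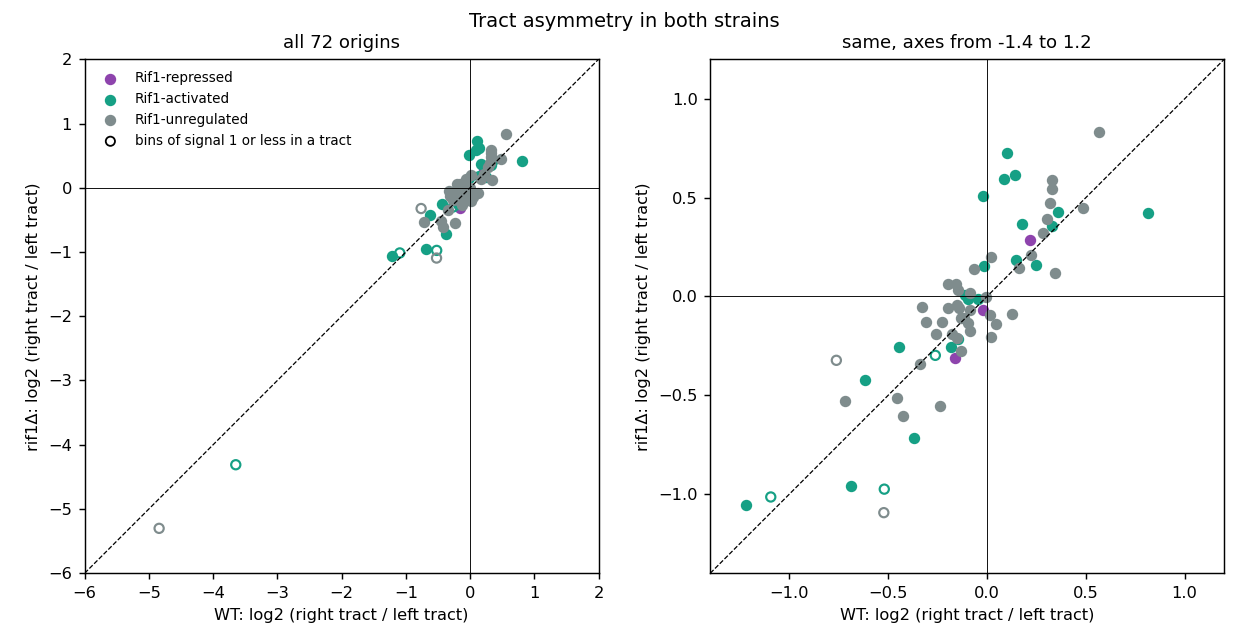
Asymmetry of the 72 origins measured in both strains, log2 of right over left tract signal with 1 added to each, in *rif1Δ* (vertical) against *WT* cells (horizontal), by class; open points have low bins in a tract, the dashed line marks equal values, and the right panel leaves the 2 points below -3 outside its axes. Points follow the dashed line, and the 2 outermost are ARS1308 and ARS109.

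The asymmetry in *rif1Δ* minus that in *WT* cells had a median of 0.04. It was under 0.25 in size at 55 of 72 origins and past 1 at 0 of 72, against 3.21% of all listed origins. In size the asymmetry was the larger in *rif1Δ* cells at 41 of 72, at 16 of 25 Rif1-activated, 22 of 44 Rif1-unregulated and 3 of 3 Rif1-repressed origins. At 5 of 72 origins the difference was 0.5 or more in size. These were 4 of 25 Rif1-activated, 1 of 44 Rif1-unregulated and 0 of 3 Rif1-repressed origins. The share of all listed origins at 0.5 or more was not computed, so the counts have no background share and are not read as a trait of a class. Of the 5 origins, ARS109, at -0.66, and ARS605, at -0.57, have low bins, whose level was not the same in the strains. At 3 to 4 kb on the right ARS109 had 0.25 in *rif1Δ* and 1.05 in *WT* cells, and ARS605 had 0.25 in *rif1Δ* and 2.03 in *WT* cells. The part of these bins in the 2 differences was not tested.

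The 3 others leaned more to the right in *rif1Δ* cells. ARS309 (chromosome III, 131978 to 132322, overlapping *ADY2*, which encodes an acetate transporter) had 13.2 on the right and 7.57 on the left in *rif1Δ* cells, against 24.9 on the right and 23.1 on the left in *WT* cells, a difference of 0.62. Its lean in *rif1Δ* cells was mostly at 1 to 2 kb, where the asymmetry was 1.34 against 0.25 in *WT* cells, and the peak was 150 bp to the right. ARS603.5 (chromosome VI, 118631 to 118952, between *CDC4* and *SMC1*, which encode an F-box protein and a cohesin subunit) had 11.995 on the right and 8.15 on the left in *rif1Δ* cells, against 24.8 on the right and 25.1 on the left in *WT* cells, a difference of 0.53. Its peak was at -16.5 bp, and measured from there the asymmetry was 0.56 in *rif1Δ* and 0.04 in *WT* cells. ARS717 (chromosome VII, 388658 to 388892, overlapping *PYC1*, which encodes a pyruvate carboxylase) had 13.7 on the right and 8.72 on the left in *rif1Δ* cells, against 28.4 on the right and 26.7 on the left in *WT* cells, a difference of 0.50, with its peak 325 bp to the right. From that peak ARS717 leaned left in both strains, at -0.41 in *rif1Δ* and -0.58 in *WT* cells. Its left signal in *WT* cells did not fall with distance, with 18.1 at 2 to 3 kb, 18.7 at 3 to 4 kb and 21.6 at 4 to 5 kb. In *rif1Δ* cells the same steps had 6.64, 4.36 and 5.78. All 3 are Rif1-activated, and at each the left tract in *rif1Δ* cells was under 10, while 99% of the background windows had at most 13.7.

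By class, the median size of the asymmetry in *rif1Δ* cells was 0.31 at 23 Rif1-repressed, 0.42 at 25 Rif1-activated and 0.18 at 44 Rif1-unregulated origins. In *WT* cells it was 0.16 at 3, 0.18 at 36 and 0.19 at 49 origins in the same order. Across the 92 origins in *rif1Δ* cells the size was somewhat larger where the tracts were lower (rho = -0.28), and the part of tract level in the class difference was not tested. Across the 88 in *WT* cells rho was 0.02.

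The 20 Rif1-repressed origins whose tracts reached 10 in *rif1Δ* cells only leaned to the right at 6 and to the left at 14. Their tracts had 10.1 to 24.2 in *rif1Δ* and 2.77 to 9.28 in *WT* cells. At 17 of the 20 the lean was under 1.5-fold, the exceptions being ARS824 with its low bins, ARS608 and ARS609. ARS608 (chromosome VI, 216344 to 216692, overlapping *MET10* and *SMC2*, which encodes a condensin subunit) had 23.7 on the right and 14.8 on the left in *rif1Δ* cells, against 7.73 on the right and 5.91 on the left in *WT* cells. ARS609 (chromosome VI, 256263 to 256418, between *HXK1*, which encodes a hexokinase, and YFR054C) had 14.5 on the right and 7.02 on the left in *rif1Δ* cells, against 2.68 on the right and 2.87 on the left in *WT* cells. Its peak lay 784.5 bp to the right of the midpoint, and from there its asymmetry in *rif1Δ* cells was -0.05 in place of 0.95. ARS603 (chromosome VI, 68690 to 68869, overlapping *MIL1*) had 14.2 on the right and 11.8 on the left in *rif1Δ* cells, against 3.92 on the right and 3.67 on the left in *WT* cells. From its peak, at -279.5 bp, ARS603 leaned further to the right in *rif1Δ* cells, at 0.96 in place of 0.24, so measuring from the peak removed the lean of ARS609 and enlarged that of ARS603.

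Of the 4 origins with the highest tracts, ARS731.5 leaned right as given above, and the 3 others were closer to even. At ARS306 (chromosome III, 74457 to 74677, between *HBN1* and *FRM2*) they had 64.8 on the right and 67.5 on the left in *rif1Δ* cells, against 82.6 on the right and 91.3 on the left in *WT* cells. At ARS1330 (chromosome XIII, 815341 to 815567, between *RCE1*, which encodes a protease of prenylated proteins, and *BUL1*) they had 51.1 on the right and 58.5 on the left in *rif1Δ* cells, against 74.97 on the right and 84.9 on the left in *WT* cells. At ARS1511 (chromosome XV, 277529 to 277778, overlapping YOL024W) they had 58.3 on the right and 52.7 on the left in *rif1Δ* cells, against 76.6 on the right and 68.4 on the left in *WT* cells. Each of the 3 had lower tracts in *rif1Δ* cells and the same higher side in both strains, but that side depended on the midpoint. From the peak, ARS1330 had an asymmetry of 0.12 in *rif1Δ* and 0.07 in *WT* cells, and ARS1511 -0.16 in *rif1Δ* and -0.10 in *WT* cells, the opposite side in each case.

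Measured from the midpoint, the most even origins with tracts of at least 30 were ARS1213, ARS508, ARS1223 and ARS516. ARS1213 (chromosome XII, 373156 to 373400, between *HOG1*, which encodes the osmostress MAP kinase, and YNCL0007W) had 38.3 on the right and 38.6 on the left in *rif1Δ* cells, against 70.0 on the right and 72.4 on the left in *WT* cells. ARS508 (chromosome V, 93977 to 94218, between *SPF1* and *ECM10*) had 40.1 on the right and 42.2 on the left in *rif1Δ* cells, against 57.6 on the right and 61.1 on the left in *WT* cells. Evenness of the whole tract did not mean evenness along it, since at ARS508 the asymmetry in *rif1Δ* cells was -0.28 at 1 to 2 kb and 0.36 at 4 to 5 kb. ARS1223 (chromosome XII, 744942 to 745179, between *UBC12* and *CDA1*) had 32.0 on the right and 34.3 on the left in *rif1Δ* cells, against 42.8 on the right and 42.3 on the left in *WT* cells. ARS516 (chromosome V, 353504 to 353751, between *SHC1* and YNCE0018W) had 33.2 on the right and 35.9 on the left in *rif1Δ* cells, against 43.3 on the right and 47.1 on the left in *WT* cells. Their sides differed by less than 10% in both strains, while the strains differed by more than that on both sides. Measured from their peaks, 164.5 bp and 197.5 bp to the right, ARS1223 leaned left by -0.54 in *rif1Δ* and -0.34 in *WT* cells and ARS516 by -0.47 in *rif1Δ* and -0.39 in *WT* cells, while ARS1213 stayed within 0.04 of even in both strains.

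Of the further origins that the study's text names, ARS607 (chromosome VI, 199382 to 199493, overlapping *RUF22*) had 54.4 on the right and 49.4 on the left in *rif1Δ* cells, against 60.9 on the right and 63.9 on the left in *WT* cells, one of the 12 whose sides did not agree. From its peak, 162.5 bp to the right, it leaned left in both strains, at -0.29 in *rif1Δ* and -0.39 in *WT* cells. ARS820 (chromosome VIII, 447619 to 447853, between *ATG7* and *SPC97*, genes of autophagy and of the spindle pole body) had 42.7 on the right and 48.4 on the left in *rif1Δ* cells, against 48.6 on the right and 51.6 on the left in *WT* cells. ARS815 (chromosome VIII, 296882 to 297475, overlapping *PAL2*, Rif1-activated) had 13.8 on the right and 13.9 on the left in *rif1Δ* cells, against 39.7 on the right and 42.6 on the left in *WT* cells. Both tracts of ARS815 were more than 2-fold lower in *rif1Δ* cells, and they were even in both strains.

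At most origins the lean did not hold along the whole tract. All 4 steps of 1 kb leaned the same way at 27 of 92 origins in *rif1Δ* and 30 of 88 in *WT* cells, and among origins with a lean of 1.5-fold or more at 11 of 17 in *rif1Δ* and 10 of 13 in *WT* cells. The steps at 1 to 2 kb and 4 to 5 kb leaned the same way at 47 of 92 in *rif1Δ* and 46 of 88 in *WT* cells, and their asymmetries had a rho of 0.04 across origins in *rif1Δ* and 0.12 in *WT* cells. At ARS310 the lean was -0.97 at 1 to 2 kb, -1.61 at 2 to 3 kb, -1.30 at 3 to 4 kb and -0.25 at 4 to 5 kb in *rif1Δ* cells, against -0.66, -1.94, -2.38 and -1.54 in *WT* cells. At ARS820 the steps farther out leaned left, reaching -0.69 at 4 to 5 kb in *rif1Δ* and -0.79 in *WT* cells, while the first was at 0.00 in *rif1Δ* and 0.16 in *WT* cells.

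The position of the peak moved with the lean, in part by construction, since a midpoint that is not on the peak gives a lean. The highest bin within 1 kb of the midpoint, on the mean of both strains, lay on the side of the higher tract at 58 of 92 origins in *rif1Δ* and 53 of 88 in *WT* cells, and its offset and the asymmetry had a rho of 0.45 in *rif1Δ* and 0.41 in *WT* cells. It was within 100 bp of the midpoint at 47 of 92 and 47 of 88 origins. With the tracts measured from the peak, 39 of 92 origins leaned right in *rif1Δ* and 35 of 88 in *WT* cells. Leans of 2-fold then numbered 4 in *rif1Δ* cells, all to the left and all with low bins (ARS1308, ARS109, ARS824 and ARS1628). In *WT* cells there were 5, of which 1, ARS416 (chromosome IV, 462430 to 462700, overlapping *TRP1*), had no low bins, at -1.08 and, in *rif1Δ* cells, -0.997.

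Other features of the surroundings, which the choice of origins did not use or used only as a limit, split the leans about evenly. Of the 92 origins in *rif1Δ* cells 47 leaned to the side of the nearer listed origin, and of the 88 in *WT* cells 50. Where that neighbor was 10 to 15 kb away these were 9 of 21 and 11 of 19. Leans pointed away from the centromere at 45 of 92 origins in *rif1Δ* and 47 of 88 in *WT* cells. Within 20 kb of a centromere they did so at 8 of 11 origins in *rif1Δ* and 10 of 13 in *WT* cells. These are few origins.

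Transcription was compared through the gene with the longest stretch in each tract, which can cover only a small share of it. Where it reads away from the origin on 1 side and toward it on the other, the lean was to the side read away from the origin at 24 of 53 origins in *rif1Δ* and 22 of 50 in *WT* cells. By class, a split made after the values were seen, these were 11 of 12 Rif1-activated, 2 of 14 Rif1-repressed and 11 of 27 Rif1-unregulated origins in *rif1Δ* cells, against 13 of 19, 0 of 2 and 9 of 29 in *WT* cells. The classes did not go the same way, and the pattern has no test.

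The length of the tracts moved with their level, and both were read from the same smoothed signal. The distance to 50% of the center was longer on the side of the higher tract at 60 of 92 origins in *rif1Δ* and 68 of 88 in *WT* cells. The distance to a signal of 10 was longer on that side at 67 of 92 origins in *rif1Δ* and 54 of 88 in *WT* cells.

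The peak lay to the right of the listed midpoint at 100 of the 189 isolated origins, against 22 of the 25 origins on chromosomes X and XI that met the other limits, where the offset had a median of 262 bp. Of these 25, 13 had tracts of at least 10 in *rif1Δ* and 13 in *WT* cells, which were not all the same origins. In *rif1Δ* cells 10 of 13 leaned right, and 6 from the peak. In *WT* cells 12 of 13 leaned right, and 8 from the peak. At the limit of isolation, the pair just inside it was ARS1329 and ARS1330 on chromosome XIII, at 10227 bp from each other, and the pair just outside it ARS214 and ARS215 on chromosome II, at 9939.5 bp. ARS1329, at 13.1 on the right and 17.6 on the left in *rif1Δ* cells, against 7.58 on the right and 4.01 on the left in *WT* cells, leaned away from its neighbor in *rif1Δ* cells. ARS214 had 11.5 on the right and 12.3 on the left in *rif1Δ* cells, against 37.3 on the right and 32.2 on the left in *WT* cells, and ARS215 5.25 on the right and 9.997 on the left in *rif1Δ* cells, against 3.62 on the right and 5.49 on the left in *WT* cells.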

How the data were processed

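BrdU-labelled DNA of *rif1Δ* and *WT* cells was sequenced by the authors, 2 libraries per strain. Per the study's methods the authors split the reads by barcode, trimmed the first 10 bp, aligned them with Bowtie2 to the R64 yeast genome and counted coverage in 50 bp bins. The deposited signal was smoothed over 1 kb, quantile normalized between replicates, averaged over the 2 replicates and smoothed again. The versions of the tools, the scaling between strains and the treatment of reads with several alignments are not given in the sources used here. The R64 reference and these W303-derived cells are different strain backgrounds. The depth behind a signal value is unknown, so no interval for counting error is given.

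From the signal, tract means at 1 to 5 kb, log2 ratios with a pseudocount of 1, and counts of origins were computed with Python 3.11.15, numpy 2.4.6, pandas 2.3.3 and scipy 1.17.1, and drawn with matplotlib 3.10.9. Sides were compared where the mean of both tracts was at least 10. The measures were tested on simulated profiles with flat tracts of known ratio, centered on the midpoint. These had no smoothing, peak offset or stretches without signal, so the test does not cover such features. Origin positions and classes come from the authors' list, and genes from a RefSeq table of the R64 assembly, with direction read from systematic names. The position of a centromere was taken from the arm genes that flank it, and distances to it run to the edge of the nearer of these genes.

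The 28 named origins are the 6 with the largest lean to each side in both strains, the 3 with the largest difference of asymmetry in each direction, the 4 with the highest tracts, the 4 most even ones at 30 or more and those that the study's text names, and some meet several of these. ARS107, ARS707, ARS1618, ARS211, ARS225, ARS416, ARS520, ARS608, ARS824, ARS1216, ARS1628 and the origins at the limit of isolation were added after their values were seen. The isolated origins and these lists were chosen with earlier results of these data known.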

Additional observations from a re-analysis of the deposited data

How the results depend on the processing

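No paired analysis was possible because the processed profile used here merges the 2 replicates of each strain, so no replicate could be dropped either. The direction of the ARS consensus was not examined here. Over 25 results and 22 alternative settings, 304 of 331 alternative values stayed within their intervals (for counts, within 1.5 times), 26 moved outside them and 1, whose interval did not include 0, turned its sign. These are 95% intervals over origins, which are not replicates, and the alternatives reuse the same signal and largely the same origins. A value within its interval thus says nothing about error between replicates. The median asymmetry in *rif1Δ* cells turned to 0.0203 with tracts of 2 to 5 kb, and that in *WT* cells moved to -0.00035 with no signal minimum. Origins with a 2-fold lean in *rif1Δ* cells, 6 in the report, numbered 2 with tracts of 2 to 5 kb, 3 with a pseudocount of 10, 1 with a minimum of 20, 12 with no minimum and 10 with chromosomes X and XI added, and at 1.5-fold there were 17. In *WT* cells, also 6 in the report, they numbered 3 with a pseudocount of 10 and 14 with no minimum, and at 1.5-fold 13. Without origins with low bins, or with those bins masked, both settings chosen after seeing the data (as was gene direction by bases on each strand), there was 1 in *rif1Δ* and there were 2 in *WT* cells. Origins whose asymmetry differed by 2-fold between strains, 0 in the report, numbered 1 with tracts of 1 to 3 kb, 2 with a pseudocount of 0.1, 7 with no minimum and 1 with X and XI added, and at 1.5-fold 2. Spearman's rho between strains was 0.797 with tracts of 2 to 5 kb, 0.712 with the median over bins and 0.631 with no minimum, against 0.871 in the report. With the median over bins 70.8% of origins leaned the same way, the median difference in asymmetry was -0.0186, a turn of sign from 0.04 in the report, and that in its size 0.0730, against 0.0719 for the size with tracts of 2 to 5 kb. With no minimum these medians were -0.0123 and -0.00769, also below 0, where the intervals include 0. The causes of these moves were not tested, apart from those made by construction through fewer or more origins.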
